A study of Homo sapiens with 15 samples.

Results

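The histone genes of the count table were examined in ML1 and U937, 2 myeloid leukemia cell lines (U937 has monocytic features). They were the 73 genes whose symbols begin with HIST1H to HIST4H, called replication-dependent here, and 9 variant genes (H1F0, H1FX, H2AFX, H2AFZ, H2AFV, H2AFJ, H2AFY, H3F3A and H3F3B), chosen by symbol, 82 of 26485 genes in all. The 73 take in the pseudogenes HIST1H2APS1, HIST2H2BA and HIST2H2BC and the testis-associated HIST1H1T and HIST3H3. The U937 groups were 10 nM prexasertib with 350 nM LSN622666, 10 nM prexasertib alone, and diluent. The ML1 groups were 10 nM prexasertib and diluent. Prexasertib inhibits the checkpoint kinase CHK1, and LSN622666 is given in the labels by its code only. Every culture was treated for 24 h and also received 5 µM Q-VD-OPh, a pan-caspase inhibitor, and no group without it was compared. Each of the 5 groups held 3 libraries. Each line is a single established line, and a group with LSN622666 alone, or with both compounds in ML1, was not analysed here.

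Replication-dependent histone genes encode the bulk of the H1, H2A, H2B, H3 and H4 proteins and are transcribed mainly in S phase from clusters of short, intronless genes. Their mRNAs normally end in a conserved stem-loop that is bound by SLBP, with no poly(A) tail, although polyadenylated forms of some are known from differentiated and non-dividing cells. Variant genes lie outside the clusters, and most are expressed through the cell cycle and give ordinary polyadenylated mRNAs. They encode proteins with their own roles, such as the linker histones H1.0 (H1F0) and H1x (H1FX), the DNA damage-phosphorylated H2A.X (H2AFX), H2A.Z (H2AFZ and H2AFV), macroH2A1 (H2AFY) and H3.3 (H3F3A and H3F3B). The TruSeq v2 kit named in the labels selects polyadenylated RNA in its standard protocol and does not mark strand. Which 3' ends the counted transcripts carried was not tested.

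In GENCODE v29 (GRCh38) the HIST1 cluster held 56 members on chromosome 6, between 25726132 and 27893843. HIST2 held 13 members and HIST3 held 3, both on chromosome 1, and HIST4H4 lies on chromosome 12. The stem-loop was searched on the sense strand of annotated transcripts as a 16-base pattern (the histone stem-loop, with a few positions free), which was found in 32 of 73 replication-dependent members, in 1 of 9 variants and in 60 of 57133 gene names (0.105%). Many members without a match have short annotated transcripts, such as 312 bases for HIST1H4A and 381 for HIST1H2BK. These may end before the stem-loop, so a missing match does not show that a gene lacks it. The forms found in members named in the results are shown because they mark where the replication-dependent mRNA normally ends. The stem is in capitals and the loop in lower case.
HIST1H2AC: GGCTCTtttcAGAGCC
HIST1H2AG: GGCTCTtttcAGGGCC
HIST1H2BC: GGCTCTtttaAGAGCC
HIST1H4H: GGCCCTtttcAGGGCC
HIST1H4I: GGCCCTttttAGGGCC
H2AFX: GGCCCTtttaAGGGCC
The first form was the commonest, in 17 members. In 21 replication-dependent members the annotated transcript ran on for at least 300 bases past the stem-loop. It ran on for 1128 bases in HIST1H2AC, for 1655 in HIST1H4H and for 1044 in H2AFX.

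Many H2A and H2B genes stand head to head and share the stretch between their start sites. The 250 bases before the RefSeq start (GRCh38.p14) are shown for 1 gene of each of 4 pairs that the results turn on. Capitals mark TATAAA (the TATA box), CCAAT (the CCAAT box) and ATTTGCAT (the octamer) on either strand, and neighbouring matches can overlap.
HIST1H2AC (chr6:26123922-26124171, plus strand): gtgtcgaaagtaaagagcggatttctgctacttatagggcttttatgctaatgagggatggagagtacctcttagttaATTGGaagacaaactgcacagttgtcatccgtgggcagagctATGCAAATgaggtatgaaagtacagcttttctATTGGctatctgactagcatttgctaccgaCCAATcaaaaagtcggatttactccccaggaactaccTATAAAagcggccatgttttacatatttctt
HIST1H2BJ (chr6:27132796-27133045, minus strand): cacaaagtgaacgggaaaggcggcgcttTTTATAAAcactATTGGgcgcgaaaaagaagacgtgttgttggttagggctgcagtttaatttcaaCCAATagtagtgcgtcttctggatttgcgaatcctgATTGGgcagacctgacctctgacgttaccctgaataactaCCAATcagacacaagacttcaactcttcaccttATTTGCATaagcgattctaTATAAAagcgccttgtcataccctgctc
HIST1H2BG (chr6:26216689-26216938, minus strand): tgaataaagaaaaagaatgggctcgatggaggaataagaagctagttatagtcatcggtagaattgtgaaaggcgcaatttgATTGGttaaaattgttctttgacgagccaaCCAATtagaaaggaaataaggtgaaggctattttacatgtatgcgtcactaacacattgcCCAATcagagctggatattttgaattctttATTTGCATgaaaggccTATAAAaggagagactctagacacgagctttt
HIST3H2A (chr1:228457874-228458123, minus strand): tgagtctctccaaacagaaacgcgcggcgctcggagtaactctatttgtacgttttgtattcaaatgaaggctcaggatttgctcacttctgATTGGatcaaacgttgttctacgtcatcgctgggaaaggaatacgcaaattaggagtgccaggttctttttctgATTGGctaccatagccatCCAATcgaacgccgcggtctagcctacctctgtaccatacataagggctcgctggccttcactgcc
HIST1H2AC stands 219 bases from HIST1H2BC, and HIST1H2BJ stands 292 bases from HIST1H2AG. HIST1H2BG is 283 bases from HIST1H2AE, and HIST3H2A is 234 bases from HIST3H2BB. RefSeq windows were matched for 73 of the 82 members. TATAAA was present in 44 of 65 replication-dependent windows (67.7%), against 10.7% of all 35116 windows of that length. CCAAT was in 55 (84.6%, against 32%) and ATTTGCAT in 25 (38.5%, against 1.63%). TGACGTCA, the cyclic AMP response element, was in 9 (13.8%, against 1.65%). Of the 8 variant windows, 4 held TATAAA, 7 CCAAT, 1 ATTTGCAT and 0 TGACGTCA. The HIST3H2A window held 3 CCAAT matches and neither of the other marked words.

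Library totals ran from 49011222 to 87301014 counts. A filter on low counts left 17243 genes, among them 66 of the 82 members (58 replication-dependent and 8 variant). The 16 others include HIST2H4A, HIST2H4B, HIST2H3A, HIST2H3C, HIST2H2AA3 and HIST2H2AA4, which had 0 counts in every library. These are near-identical pairs, in which 0% to 2.91% of 50-base stretches of the annotated transcript occur in no other gene. The other 10 had at most 71 counts over all libraries. H3F3A was among them, at 0 or 1 count a library, while the H3.3 pseudogene H3F3AP4 had 493 to 2751 counts. Unlike the pairs, H3F3A has 88.3% of its 50-base stretches in no other gene, and 11.7% also occur in H3F3AP4. Why its counts were so low was not tested. How the authors' counting treated reads that match several genes is not stated in the labels or files. HIST1H1T and HIST1H3G passed the filter only through their highest group, and 38 of the 58 replication-dependent members averaged at least 1 CPM over all libraries (CPM, counts scaled to a common library total). The myeloid identity of the lines was checked with 10 marker genes. All 10 had counts in every group, and their summed level was 5770 to 7925 CPM in ML1 with prexasertib, 4114 to 5288 in ML1 with diluent, 1430 to 1657 in U937 with the combination, 1185 to 1605 in U937 with prexasertib and 1866 to 2351 in U937 with diluent. Single markers moved both ways in ML1. Mean LYZ was 3627 CPM with prexasertib and 514 with diluent, ELANE 1154 and 2647, and MPO 508 and 948. CD14 was low with diluent, at 0.186 CPM in ML1 and 0.24 in U937. Of 3 T cell markers all were at 0 in ML1, and in U937 2 of 3 were at 0, with a sum of at most 1.02 CPM. The 3 erythroid markers summed to at most 0.319 CPM and the 6 of fibroblasts and epithelium to 0.535 to 10.3 CPM. The 3 B cell markers summed to 14.8 to 16.5 CPM in U937 with the combination, 8.15 to 10.9 with prexasertib and 7.63 to 12.3 with diluent, and to 2.56 to 3.03 CPM in ML1 with prexasertib and 6.35 to 7.25 with diluent. MS4A1 was at 0 in every U937 library, and the part of these genes in the histone values was not tested.

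Prexasertib was first compared with diluent in U937. Counts of replication-dependent histone genes, from a kit whose standard protocol selects polyadenylated RNA, were higher as a class. Their summed level was 536, 856 and 551 CPM with prexasertib and 72.2, 166 and 179 CPM with diluent, so the groups did not overlap. Of the 58 tested, 40 rose and 0 fell, with a median log2 fold change of 2.05, while 46 had an unadjusted p under 0.05. Over all genes tested 31.1% were called (18.3% higher and 12.8% lower) and the median was 0. A member was called at an adjusted p under 0.05 in the quasi-likelihood test of edgeR, adjusted by Benjamini-Hochberg over all 17243 genes. These are bulk cultures, in which a change in the share of cells in a phase of the cell cycle and a change in RNA per cell cannot be told apart. Replicate 2 of the prexasertib group was the highest of its group in 45 of the 58 members, and replicate 1 of the diluent group the lowest of its group in 42. Leaving out 1 library gave 33 to 44 replication-dependent members that rose.

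In ML1 the same class moved the same way. The sum was 535, 661 and 628 CPM with prexasertib and 128, 110 and 111 CPM with diluent. There, 47 of 58 rose and 0 fell (51 at an unadjusted p under 0.05), with a median log2 fold change of 2.28, when 48.8% of all genes were called (25.3% higher, 23.5% lower) and the median of all genes was 0.02. A total of 35 members rose in both lines, 12 only passed the threshold in ML1 and 5 only in U937. The share of all genes that rose in both lines was not counted. Histone reads were a small part of each library even so. The kit's standard protocol may miss mRNA without a poly(A) tail, so total histone mRNA was not measured. Replication-dependent genes took 0.0528% to 0.0622% of counts in ML1 with prexasertib, against 0.0106% to 0.0128% with diluent, and 0.0556% to 0.0925% in U937 with prexasertib, against 0.00711% to 0.0171% with diluent.

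HIST1H2BK and HIST1H1C were the replication-dependent genes with the highest mean CPM. HIST1H2BK, which encodes an H2B (chromosome 6, 27146418 to 27146798, minus strand, a single exon), had 87.7, 181 and 94.4 CPM in U937 with prexasertib and 12.3, 25.8 and 20.1 CPM with diluent. ML1 libraries had 123, 163 and 179 CPM with prexasertib and 23.8, 21.9 and 18.8 CPM with diluent. No treated library overlapped a diluent library in either line. The log2 fold changes were 2.64 ± 0.41 (SE, adjusted p = 0.00041 in edgeR) in U937 and 2.85 ± 0.41 (adjusted p = 4.4e-05) in ML1. Of its 50-base stretches 25.9% occur in no other gene and 61.4% also occur in H2BFS, so its reads may be shared. Per kilobase of annotated exon its level was 318 CPM in U937 with prexasertib, the highest of all members there, and 407 in ML1 with prexasertib, where H1FX was higher at 513. These ranks depend on annotated lengths, which were 381 bases for HIST1H2BK, 1507 for H1FX, 2344 for H1F0 and 6134 for H3F3B. The annotation used for counting is not stated, so the ranks are not a measure of relative expression.

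HIST1H1C encodes the linker histone H1.2 (chromosome 6, 26055787 to 26056428) and all of its 50-base stretches are its own. It had 62.6, 92.7 and 66.3 CPM in U937 with prexasertib and 18.3, 39.6 and 31.9 CPM with diluent, a log2 fold change of 1.31 ± 0.30 (SE, adjusted p = 0.0047 in edgeR). The ML1 values were 101, 99.5 and 103 CPM with prexasertib and 20.6, 19.9 and 20.9 CPM with diluent, a log2 fold change of 2.31 ± 0.31 (adjusted p = 1.2e-05). The groups of HIST1H1C did not overlap in either line, and the ML1 libraries of each group lay closer together than those of U937. HIST1H1E, another linker histone gene, behaved differently in the lines. It had 13.1, 12 and 13.5 CPM in U937 with prexasertib and 5.09, 9.47 and 12.7 CPM with diluent, which overlapped (log2 fold change 0.51, adjusted p = 0.096 in edgeR). Its ML1 levels were 49.3, 55.9 and 45.4 CPM with prexasertib and 11.3, 10.7 and 9.31 CPM with diluent (log2 fold change 2.27, adjusted p = 3.4e-07). Without replicate 3 of the U937 diluent group the U937 change was 0.79 and passed the threshold (adjusted p = 0.019).

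Larger changes were seen in a few core histone genes. HIST1H2AC, an H2A gene (chromosome 6, 26124145 to 26139116, plus strand), had 63.6, 97.2 and 58 CPM in U937 with prexasertib and 1.5, 4 and 2.99 CPM with diluent. Counts in ML1 gave 27, 28 and 31.6 CPM with prexasertib and 1.75, 1.61 and 1.3 CPM with diluent. Every treated library was far above every diluent library, with log2 fold changes of 4.70 ± 0.51 in U937 (SE, adjusted p = 1.8e-05 in edgeR) and 4.21 ± 0.51 in ML1 (adjusted p = 5.9e-06). HIST1H2BJ, an H2B gene (chromosome 6, 27125897 to 27132750, minus strand), had 58.5, 76.3 and 53.5 CPM in U937 with prexasertib and 0.916, 3.67 and 4.17 CPM with diluent. Values in ML1 were 27.9, 26.1 and 35.9 CPM with prexasertib and 1.95, 1.22 and 1.92 CPM with diluent. It rose by 4.45 ± 0.53 in U937 (SE, log2 scale, adjusted p = 4.1e-05 in edgeR) and by 4.15 ± 0.53 in ML1 (adjusted p = 1.1e-05). HIST1H3D, an H3 gene, rose by 5.22 ± 0.55 in U937 (SE, log2 scale) and by 4.98 ± 0.57 in ML1. All of its 50-base stretches are shared with the overlapping annotation AL031777.3, and the kit does not mark strand, so the source of its reads is uncertain.

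**Figure D1:**
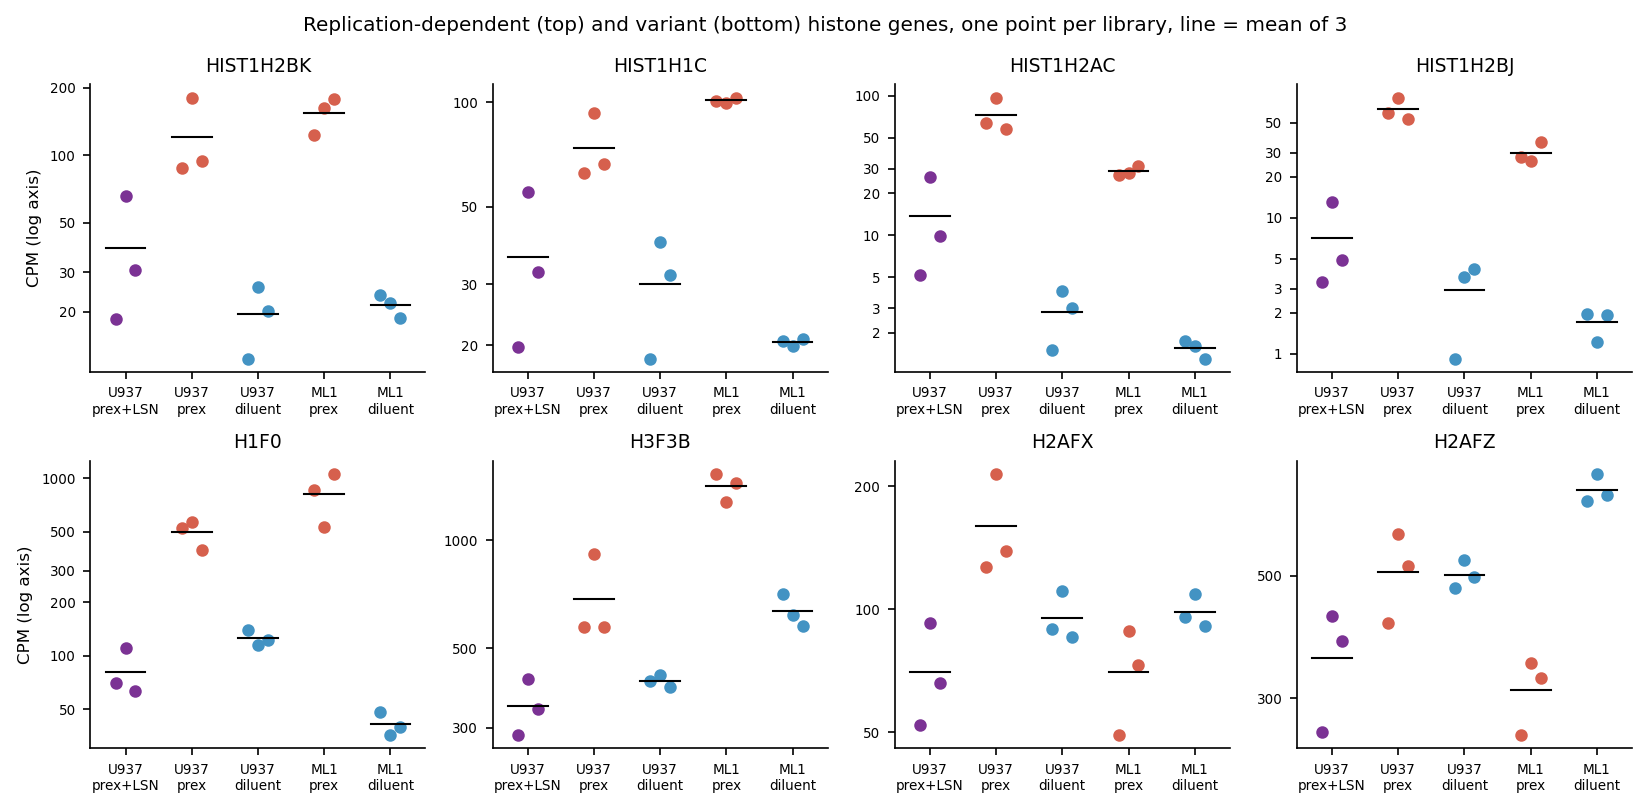
CPM on log axes in each library for 4 replication-dependent genes (top) and 4 variants (bottom), with the groups on the x axis, 1 point a library and a line at the mean of 3. HIST1H2AC and HIST1H2BJ are far above diluent in every prexasertib library of both lines, and H2AFZ is lower with prexasertib in ML1 and overlaps in U937.

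Of the other members among the 12 with the highest mean CPM, HIST1H2BD (H2B), HIST1H4H (H4), HIST1H2BO (H2B), HIST2H2BE (H2B) and HIST2H2BC rose in both lines. HIST1H4H had 24.3, 38.5 and 25.1 CPM in U937 with prexasertib and 1.73, 3.96 and 5.77 CPM with diluent. ML1 gave 12.8, 11 and 11.7 CPM with prexasertib and 4.21, 2.69 and 3.84 CPM with diluent. No libraries overlapped. The log2 fold changes of HIST1H4H were 2.95 in U937 and 1.73 in ML1, those of HIST1H2BD 3.04 and 2.71, of HIST1H2BO 2.19 and 1.54, and of HIST2H2BE 1.73 and 2.11. HIST2H2BC, which GENCODE gives as a transcribed pseudogene overlapping HIST2H2BD, rose by 3.90 and 2.69. HIST1H2AM (H2A) had 10.6, 10.2 and 12.5 CPM in U937 with prexasertib and 2.85, 7.52 and 10.1 CPM with diluent. The groups of HIST1H2AM came close without overlapping, and its log2 fold change of 0.71 had an adjusted p of 0.094 in edgeR. With the replicate number as a block it was 0.78 with an adjusted p of 0.047, and without replicate 3 of the diluent group 1.06 with an adjusted p of 0.03. In ML1 HIST1H2AM rose by 0.99 (adjusted p = 0.015 in edgeR). It lost the call without replicate 2 of the diluent group (0.88, adjusted p = 0.065) or replicate 2 of the prexasertib group (0.73, adjusted p = 0.091). Of its 50-base stretches 78.2% are shared with HIST1H3J, with which it overlaps.

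A few members had 0 or 1 count with diluent in each line and more with prexasertib. HIST1H1T, HIST1H3E and HIST1H3G were singled out after their values were seen. HIST1H1T, a linker histone gene known from testis, had 99 counts over the 3 prexasertib libraries of U937 and 0 over the 3 diluent libraries, at least 28.4-fold higher. In ML1 it had 46 counts with prexasertib and 0 with diluent, at least 18.1-fold higher, where bounds take 3 counts over the diluent group as the floor. HIST1H3G (H3) was at least 7.75-fold higher in U937 (27 counts against 0) and at least 11-fold higher in ML1 (28 against 0). HIST1H3E (H3) had 370 counts in U937 with prexasertib and 1 with diluent, which is 318 times as many after scaling (95% counting interval 56.8 to 12613). In ML1 it had 143 counts with prexasertib and 1 with diluent, 169 times as many (29.8 to 6708). Intervals and floors cover counting error only.

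The classes of core and linker histone shared the direction. In U937 with prexasertib 3 of 5 H1, 10 of 13 H2A, 14 of 17 H2B, 7 of 12 H3 and 6 of 11 H4 members rose. In ML1 with prexasertib the counts were 5 of 5, 12 of 13, 11 of 17, 10 of 12 and 9 of 11. HIST1H1T and HIST1H3G are among the H1 and H3 members that rose in both lines, although they passed the filter on low counts only through the prexasertib group where they were highest, so their rise is no support. Of the 38 replication-dependent members with a mean of at least 1 CPM over all libraries, 28 rose in U937 and 34 in ML1. That mean takes in the prexasertib libraries, so the choice can favour members that rose and is no separate support. HIST1H2BG, for example, reached it with diluent means of 0.688 CPM in ML1 and 0 in U937. Median log2 fold changes in U937 were 1.31 (H1), 1.9 (H2A), 2.14 (H2B) and 2.24 (H3). The H4 median there, 2.61, takes in fitted values of HIST4H4 and HIST1H4L, each with 2 counts with prexasertib and 0 with diluent. Both genes were too low in U937 to measure, so H4 is not ranked against the other types there. In ML1 the medians ran from 2.11 (H2B) to 3.07 (H3, with members at 0 counts set to their bound). Over all genes tested 18.3% were higher in U937 and 25.3% in ML1. The lowest share that rose by type was 54.5% (H4, with HIST4H4 and HIST1H4L in the total) in U937. In ML1 it was 64.7% (H2B, with HIST3H2BB in the total, at 2 counts against 0). By cluster, 34 of 48 HIST1, 4 of 6 HIST2, 2 of 3 HIST3 and 0 of 1 HIST4 members rose in U937, with medians of 2.21, 1.53 and 1.72 in the first 3. The HIST4 member, HIST4H4, was too low in U937 to measure. In ML1 41 of 48 HIST1, 5 of 6 HIST2, 0 of 3 HIST3 and 1 of 1 HIST4 members rose, with medians of 2.45 for HIST1 and 2.22 for HIST2. HIST1 itself falls into 3 stretches. From 25726132 to 26285638, 21 of 27 tested members rose in U937 and 22 in ML1. From 27125897 to 27147515, 4 of 5 rose in U937 and 5 in ML1, and from 27807444 to 27893843, 9 of 16 and 14. Members with an annotated transcript running at least 300 bases past the stem-loop rose in 14 of 17 cases in U937 and 12 of 17 in ML1, and members with no stem-loop in their annotated transcript in 20 of 32 and 28 of 32. The latter are classed by annotation only, and many of their annotated transcripts may end before the stem-loop.

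**Figure D2:**
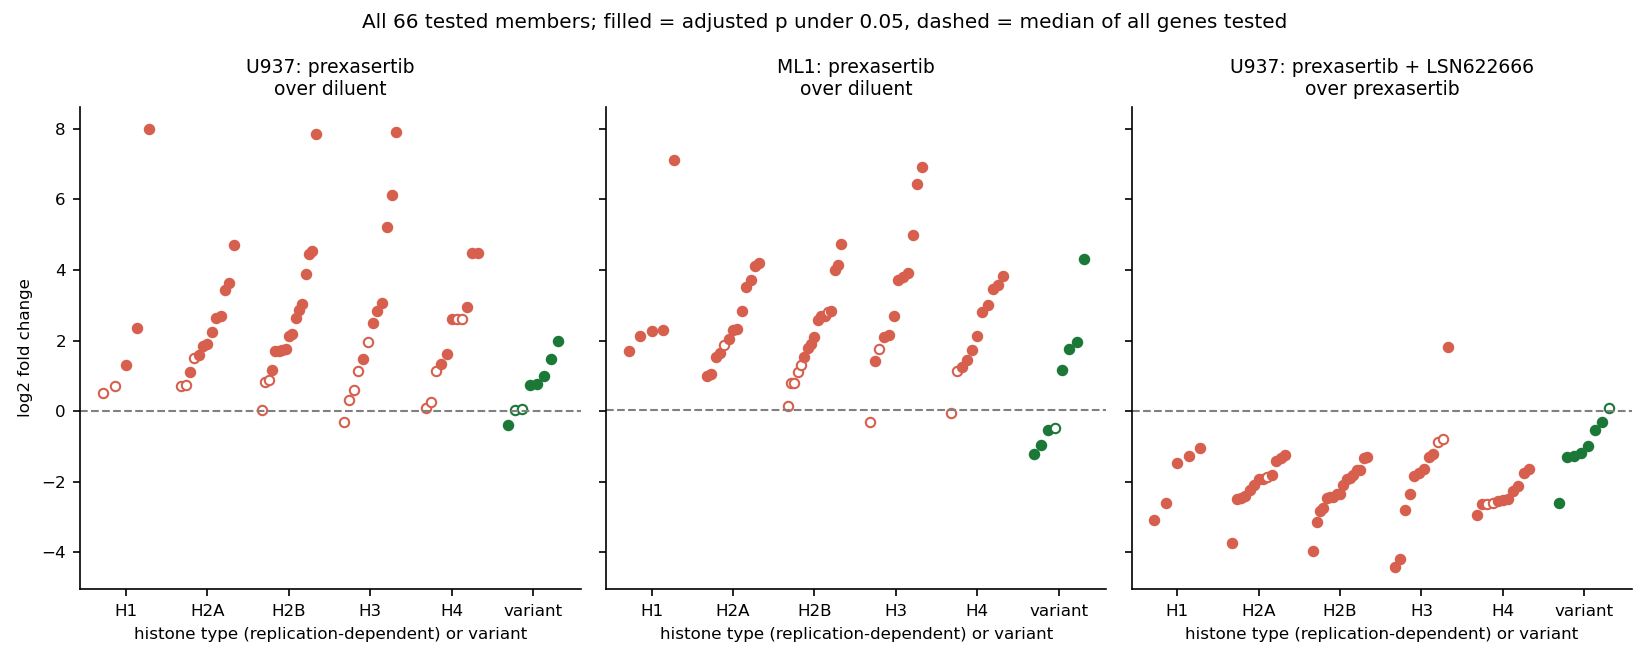
Log2 fold change (y axis) of the 66 tested members by histone type or as variants (x axis) in 3 comparisons, 1 point a gene, filled at an adjusted p under 0.05, with the median of all genes as a dashed line. Points of genes with 0 counts in a group are fitted values and not bounds. Replication-dependent points lie mostly above the line with prexasertib in both lines and, apart from HIST3H3, below it when LSN622666 was added.

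The variants split. In U937 with prexasertib 5 of 8 rose, 1 fell, and the median log2 fold change was 0.75, when 31.1% of all genes were called (18.3% higher, 12.8% lower). Without replicate 3 of the diluent group 3 variants rose. In ML1 4 rose, 3 fell, and the median was 0.34, when 48.8% of all genes were called (25.3% higher, 23.5% lower). H1F0 encodes H1.0, a linker histone known to accumulate in cells that stop dividing (chromosome 22, 37805093 to 37807436). It had 521, 568 and 396 CPM in U937 with prexasertib and 139, 115 and 122 CPM with diluent. In ML1 it had 861, 528 and 1053 CPM with prexasertib and 48.3, 35.7 and 39.8 CPM with diluent. H1F0 was thus separated in both lines, with a log2 fold change of 1.98 ± 0.24 in U937 (SE, adjusted p = 1.8e-05 in edgeR) and 4.30 ± 0.26 in ML1 (adjusted p = 6e-10). H1FX had 238, 294 and 230 CPM in U937 with prexasertib and 145, 120 and 116 CPM with diluent. In ML1 it had 678, 671 and 968 CPM with prexasertib and 258, 224 and 196 CPM with diluent. H1FX rose by 1.00 ± 0.18 in U937 and by 1.77 ± 0.19 in ML1 (SE, log2 scale). Its exons overlap the antisense gene H1FX-AS1, whose reads cannot be told apart without strand.

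H3F3B, an H3.3 gene, had 572, 914 and 573 CPM in U937 with prexasertib and 405, 420 and 389 CPM with diluent. In ML1 it had 1527, 1280 and 1443 CPM with prexasertib and 707, 618 and 578 CPM with diluent. Both lines were separated, with log2 fold changes of 0.76 ± 0.17 in U937 (SE, adjusted p = 0.0037 in edgeR) and 1.16 ± 0.17 in ML1 (adjusted p = 2.5e-05). H2AFJ, a low variant H2A, had 1.93, 2.51 and 1.6 CPM in U937 with prexasertib and 0.873, 0.63 and 0.663 CPM with diluent (log2 fold change 1.47, adjusted p = 0.012 in edgeR). In ML1 it stayed under 0.2 CPM in every library and its rise of 1.97 (adjusted p = 0.024 in edgeR) came with overlapping libraries. The U937 call of H2AFJ was lost without replicate 3 of the diluent group (1.37, adjusted p = 0.051) or replicate 2 of the prexasertib group (1.25, adjusted p = 0.064). The ML1 call was lost without replicate 1 (1.46, adjusted p = 0.079) or replicate 2 (1.77, adjusted p = 0.088) of the diluent group or replicate 2 of the prexasertib group (1.47, adjusted p = 0.13).

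H2AFZ and H2AFV, the H2A.Z genes, and H2AFY, the macroH2A1 gene, were lower with prexasertib in ML1. H2AFZ had 257, 347 and 326 CPM in ML1 with prexasertib and 681, 763 and 699 CPM with diluent, a log2 fold change of -1.21 ± 0.17 (SE, adjusted p = 1.4e-05 in edgeR). In U937 it had 410, 594 and 520 CPM with prexasertib and 475, 533 and 496 CPM with diluent, which overlapped (0.02, adjusted p = 0.94). H2AFV had 170, 170 and 184 CPM in ML1 with prexasertib and 363, 344 and 321 CPM with diluent, a change of -0.97 ± 0.11 (SE). In U937 H2AFV changed by 0.06 and did not pass the test. H2AFY fell by 0.52 in ML1 and by 0.39 in U937 (log2 scale, adjusted p = 0.0019 and 0.024 in edgeR), and the libraries did not overlap in either line. The U937 call of H2AFY was lost without replicate 2 of the diluent group (-0.38, adjusted p = 0.06), replicate 1 of the prexasertib group (-0.39, adjusted p = 0.053) or its replicate 2 (-0.34, adjusted p = 0.092).

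H2AFX, whose product is phosphorylated at DNA breaks, had 127, 214 and 139 CPM in U937 with prexasertib and 89.4, 111 and 85.7 CPM with diluent, a log2 fold change of 0.75 ± 0.23 (SE, adjusted p = 0.02 in edgeR). It lost that call without replicate 1 (0.67, adjusted p = 0.069) or replicate 3 (0.63, adjusted p = 0.09) of the diluent group or replicate 2 of the prexasertib group (0.45, adjusted p = 0.17). In ML1 H2AFX had 49.2, 88.4 and 73.1 CPM with prexasertib and 95.6, 109 and 91 CPM with diluent. The ML1 libraries did not overlap and the prexasertib ones were the lower, but the change of -0.49 ± 0.23 (SE) did not pass the test in edgeR (adjusted p = 0.085). With the replicate number as a block it was -0.52 with an adjusted p of 0.0032, in a fit to ML1 alone -0.48 with an adjusted p of 0.048, and without replicate 2 of the prexasertib group -0.71 with an adjusted p of 0.029. CENPA, the centromeric H3 variant, fell by 2.03 in ML1 with prexasertib and changed by 0.43 in U937, where it did not pass the test (adjusted p = 0.081 in edgeR). CENPA came from a separate list of 12 other variant histone genes, of which 3 were tested. With prexasertib in ML1, 0 of these 3 rose and 1 fell. Their median log2 fold change there was 0.77, so the fall of CENPA went against it. In U937 with prexasertib 0 rose and 0 fell, with a median of 0.43.

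Whether prexasertib acted differently in the lines was tested directly, as the U937 log2 fold change minus that in ML1. Among replication-dependent members 2 differences were positive and 5 negative at the threshold, and among variants 3 and 2. Over all genes tested 24.7% were called (12.4% higher, 12.3% lower), against 12.1% of replication-dependent and 62.5% of variant members. H1F0 had the clearest difference, -2.32 ± 0.33 (SE, adjusted p = 4.5e-05 in edgeR), and H1FX one of -0.78 ± 0.26 (adjusted p = 0.035). H2AFX, H2AFZ and H2AFV differed by 1.23, 1.23 and 1.03. HIST1H1E differed by -1.76 ± 0.32 (SE, adjusted p = 0.00052 in edgeR), HIST1H4I by -2.72 ± 0.65, HIST1H3C by -2.09 ± 0.52 and HIST2H2AC by -1.60 ± 0.43. HIST1H2BM, HIST2H2BC and HIST1H2BE differed by -3.86, 1.20 and 3.22. HIST2H2BC and HIST1H2BE each lost the call in 9 of the 12 fits that left out a library, and HIST1H2BM and H1FX in 6. Without replicate 1 of the U937 diluent group 12 members, in place of 7, were lower in U937. Without replicate 1 of the ML1 diluent group 3 members, in place of 5, were higher.

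**Figure D3:**
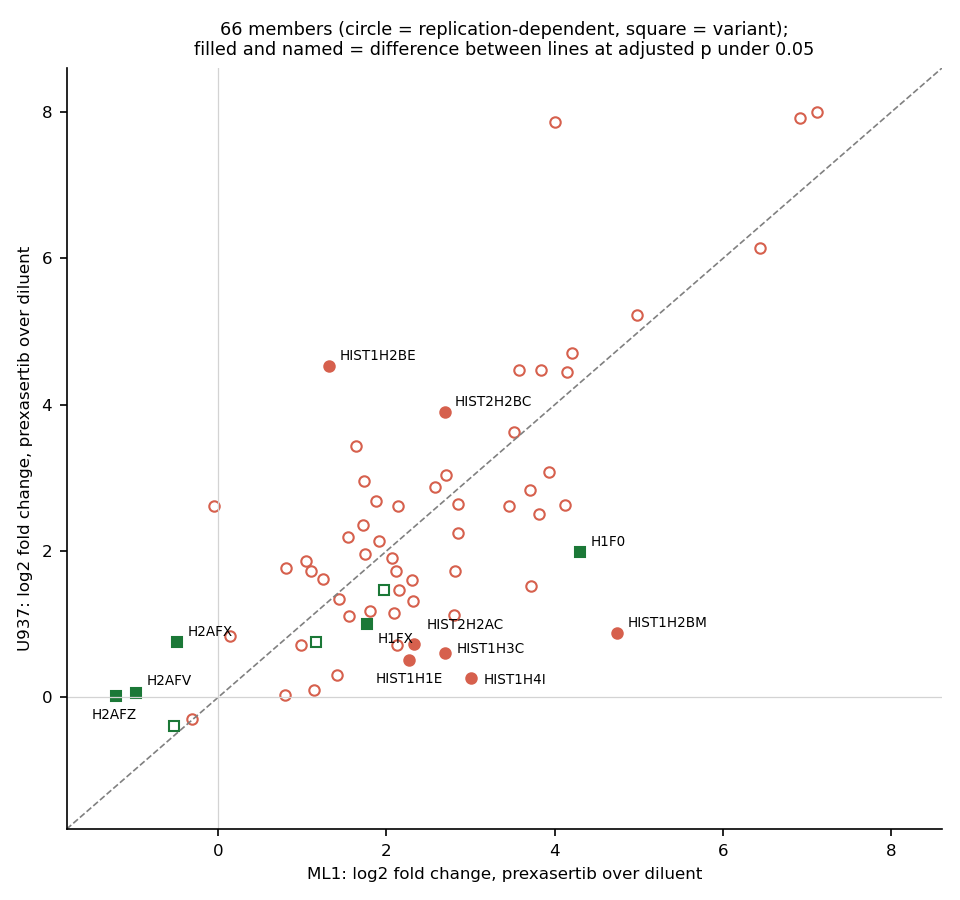
Log2 fold change with prexasertib in U937 (y axis) against ML1 (x axis) for the 66 tested members, circles for replication-dependent genes and squares for variants, filled and named where the difference between lines passed the test, with equality as a dashed line. Points of genes with 0 counts in a group are fitted values and not bounds. H1F0 lies below the line and H2AFX, H2AFZ and H2AFV above it.

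Adding LSN622666 to prexasertib in U937 gave lower levels of nearly all members. The replication-dependent sum was 105, 266 and 142 CPM with the combination and 536, 856 and 551 CPM with prexasertib alone, with no overlap. Of 58 members 52 fell and 1 rose, with a median log2 fold change of -2.11, and of 8 variants 7 fell and 0 rose, with a median of -1.09. Without replicate 2 of the prexasertib group 4 variants fell. Over all genes tested 29% were called (11.9% higher, 17.1% lower) and the median was 0.01. All 40 replication-dependent and all 5 variant members that rose with prexasertib in U937 were among those that fell. How many of all genes that rose with prexasertib also fell was not counted. The reversal is therefore not shown to be particular to histone genes. Both comparisons use the same prexasertib libraries, so their opposite signs are not independent of each other. Another 12 replication-dependent members, and H2AFZ and H2AFV, fell without having passed the test against diluent. Replicate 2 of the combination was the highest of its group in 48 of the 58 members.

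HIST1H2BJ had 3.35, 13 and 4.86 CPM with the combination and 58.5, 76.3 and 53.5 CPM with prexasertib, a log2 fold change of -3.15 ± 0.49 (SE, adjusted p = 0.00037 in edgeR). HIST1H4H had 2.3, 6.14 and 2.9 CPM with the combination and 24.3, 38.5 and 25.1 CPM with prexasertib (-2.95 ± 0.38, adjusted p = 5.6e-05 in edgeR). H1F0 had 70, 111 and 63.2 CPM with the combination and 521, 568 and 396 CPM with prexasertib (-2.61 ± 0.24, adjusted p = 5.2e-06 in edgeR). None of these 3 genes had overlapping libraries. H3F3B, H1FX and H2AFX fell by 0.99, 1.28 and 1.19 on the log2 scale. HIST1H1C fell by 1.04 (adjusted p = 0.016 in edgeR). It lost the call without replicate 2 of the prexasertib group (-0.84, adjusted p = 0.064) or replicate 3 of the combination (-0.98, adjusted p = 0.061). H2AFY changed by 0.09 and did not pass the test. H2AFZ and H2AFV fell by 0.52 and 0.31. H2AFZ lost the call in 4 of the 6 fits that left out a library (changes of -0.34 to -0.57) and H2AFV in 5 (-0.21 to -0.32), and a fit to U937 alone lost both (adjusted p = 0.059 and 0.1 in edgeR). H2AFJ fell by 1.30 and lost the call without replicate 2 of the prexasertib group (-1.10) or replicate 3 of the combination (-1.14). HIST3H3, a testis-associated H3 gene, was the member that rose, at 0.612, 0.492 and 0.45 CPM with the combination and 0.162, 0.0913 and 0.181 CPM with prexasertib. Its change of 1.82 had an adjusted p of 0.047 in edgeR and missed the threshold in each of the 6 fits that left out a library (1.59 to 2.01, adjusted p of 0.071 to 0.16).

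Against diluent few members were called with the combination. The replication-dependent sum was 105, 266 and 142 CPM with the combination and 72.2, 166 and 179 CPM with diluent, which overlapped. Of 58 members 6 rose and 3 fell, with a median of -0.01, and of 8 variants 0 rose and 0 fell (4 had an unadjusted p under 0.05, and 2 fell by DESeq2). The variants were nevertheless lower as a sum, at 1126, 1622 and 1373 CPM with the combination and 1749, 1841 and 1692 CPM with diluent, with no overlap. Their median log2 fold change was -0.29, and 1 of the 8 changes was positive. Over all genes tested 11% were called (6.88% higher, 4.11% lower). HIST1H2AC was one that rose, at 5.17, 26.3 and 9.91 CPM with the combination and 1.5, 4 and 2.99 CPM with diluent, with no overlap. Its log2 fold change was 2.30 ± 0.47 (SE, adjusted p = 0.0076 in edgeR), and 1.43 (adjusted p = 0.014) without replicate 2 of the combination, the library with the highest value. HIST1H3D rose by 2.41, and by 1.56 without that library. HIST1H4D and HIST1H4K, named after their values were seen, rose by 2.21 and 1.93, and neither was called without replicate 2 of the combination. HIST2H2BC and HIST1H3H rose by 1.07 and 1.30, and HIST1H1E, HIST1H4I and HIST2H2BF fell by 0.76, 1.46 and 1.27. HIST2H2BC, HIST1H3H, HIST1H1E, HIST1H4I and HIST2H2BF each lost the call in at least 4 of the 6 fits that left out a library. The number of members that rose was 2 without replicate 2 of the combination. The number that fell was 0 without replicate 2 of the diluent group and 10 without its replicate 1.

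With diluent alone, U937 and ML1 used partly different histone genes. In U937 12 replication-dependent members were higher than in ML1 and 8 lower, with a median of 0.15, and among variants 2 were higher and 5 lower. This is below the share of all genes for the replication-dependent members (34.5%, against 61.4% of all genes, 32% higher and 29.4% lower). HIST3H2A (H2A; chromosome 1, 228456979 to 228457873) had 2.62, 2.18 and 1.56 CPM in U937 and 0, 0 and 0.0178 CPM in ML1. That is 377 counts against 1, or 437 times as many after scaling (95% counting interval 77.9 to 17291). Its head-to-head partner HIST3H2BB (H2B) had 63 counts in U937 and 0 in ML1, at least 24.3-fold higher. The reverse held for another pair. HIST1H2BG (H2B; chromosome 6, 26215159 to 26216692) had 0 CPM in every U937 library and 0.968, 0.617 and 0.48 CPM in ML1, at least 39.1-fold lower in U937. Its partner HIST1H2AE had 0.0286, 0.054 and 0 CPM in U937 and 1.21, 1.39 and 0.941 CPM in ML1 (log2 difference -5.26, adjusted p = 5.4e-07 in edgeR). With prexasertib the order was the same. HIST1H2BG then had 0.28, 0.7 and 0.376 CPM in U937 and 9.7, 13.7 and 9.7 CPM in ML1, and HIST3H2A 10.6, 17.3 and 13.5 CPM in U937 and at most 0.0368 CPM in ML1. HIST3H2A rose by 2.69 ± 0.28 with prexasertib in U937 (SE, log2 scale), while in ML1 it had 4 counts with prexasertib and 1 with diluent, 4.72 times as many (0.467 to 232). HIST1H2BG had 90 counts in U937 with prexasertib and 0 with diluent, at least 25.8-fold higher, and it rose in ML1 as well.

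HIST4H4 and HIST1H4L, both H4 genes, had 0 counts in U937 with diluent, against 69 and 109 over the 3 ML1 libraries, at least 19.9-fold and 31.4-fold lower in U937. HIST1H4I and HIST1H2BM were higher in U937. HIST1H4I had 1.19, 3.85 and 6.31 CPM in U937 and 0.204, 0.214 and 0.32 CPM in ML1 (log2 difference 3.94 ± 0.51, adjusted p = 2.7e-06 in edgeR). HIST1H2BM had 0.401, 1.4 and 3.19 CPM in U937 and 0, 0.0475 and 0 CPM in ML1. Libraries of the lines did not overlap for either gene, though the U937 ones spread widely. Among variants H1F0 was higher in U937 (125 ± 12.5 CPM, against 41.3 ± 6.43 CPM in ML1, SD, n = 3 each) and H3F3B lower (405 ± 15.7 CPM, against 634 ± 66 CPM). H2AFY had a difference of -0.29 that missed the threshold in each of the 6 fits that left out a library (-0.26 to -0.34). Without replicate 1 of the U937 diluent group 22 members, in place of 14, were higher in U937. Newly called there were HIST1H1C (0.80), HIST1H2BJ (1.21), HIST1H2AM (0.98) and HIST1H3D (1.59), among others. Without replicate 2 of the ML1 diluent group 3 variants, in place of 5, were lower.

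**Figure D4:**
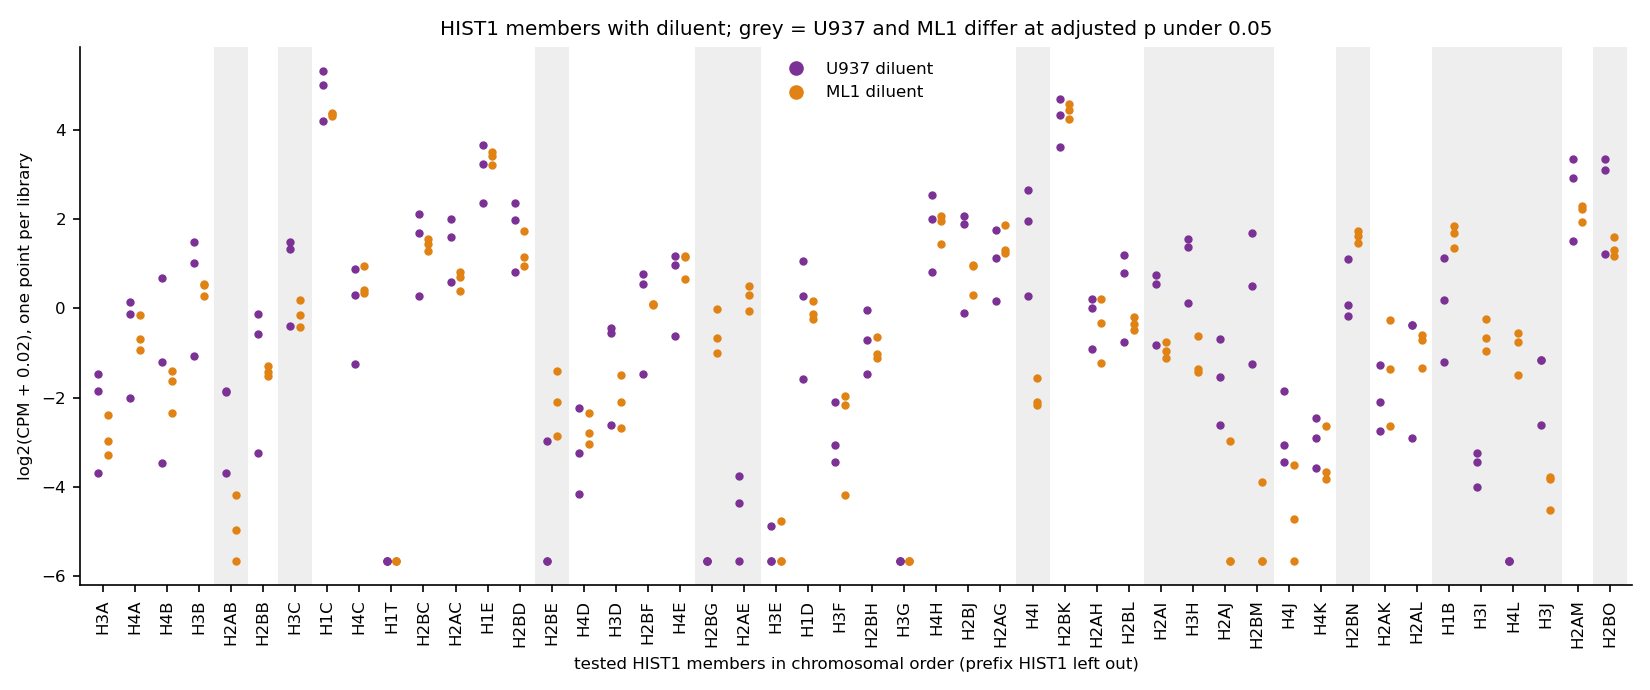
Level with diluent, as log2 of CPM + 0.02 (y axis), of the tested HIST1 members in chromosomal order (x axis), 1 point a library, U937 in purple and ML1 in orange, grey where the lines differ at an adjusted p under 0.05. H2BG and H2AE are near the floor in U937, and H2BM is near it in ML1. Most highly expressed members did not pass the test. Without replicate 1 of the U937 diluent group, H1C, H2BJ, H2AM and H3D passed it and were higher in U937.

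Several head-to-head partners had fitted changes of different size, though the difference between partners was not tested. Both genes were tested in 9 H2A and H2B pairs. Both rose in 6 pairs in U937 with prexasertib and in 7 in ML1. Of the 58 replication-dependent members tested, 40 rose in U937 and 47 in ML1, against 18.3% and 25.3% of all genes. Pairs of other genes were not counted. HIST1H2AC rose by 4.70 ± 0.51 in U937 and 4.21 ± 0.51 in ML1, and its partner HIST1H2BC by 1.77 ± 0.35 in U937 while in ML1 HIST1H2BC changed by 0.81 ± 0.34 and did not pass the test (adjusted p = 0.059 in edgeR, SE throughout). HIST1H2BJ rose by 4.45 ± 0.53 and 4.15 ± 0.53, and HIST1H2AG by 1.86 ± 0.37 and 1.05 ± 0.36. HIST1H2BK rose by 2.64 and 2.85 and HIST1H2AH by 1.11 and 1.55. HIST1H2BL rose by 1.18 and 1.80 and HIST1H2AI by 1.90 and 2.06. On adding LSN622666 partners lay closer. HIST1H2AC and HIST1H2BC fell by 2.40 and 2.42, and HIST1H2BJ and HIST1H2AG by 3.15 and 2.45.

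**Figure D5:**
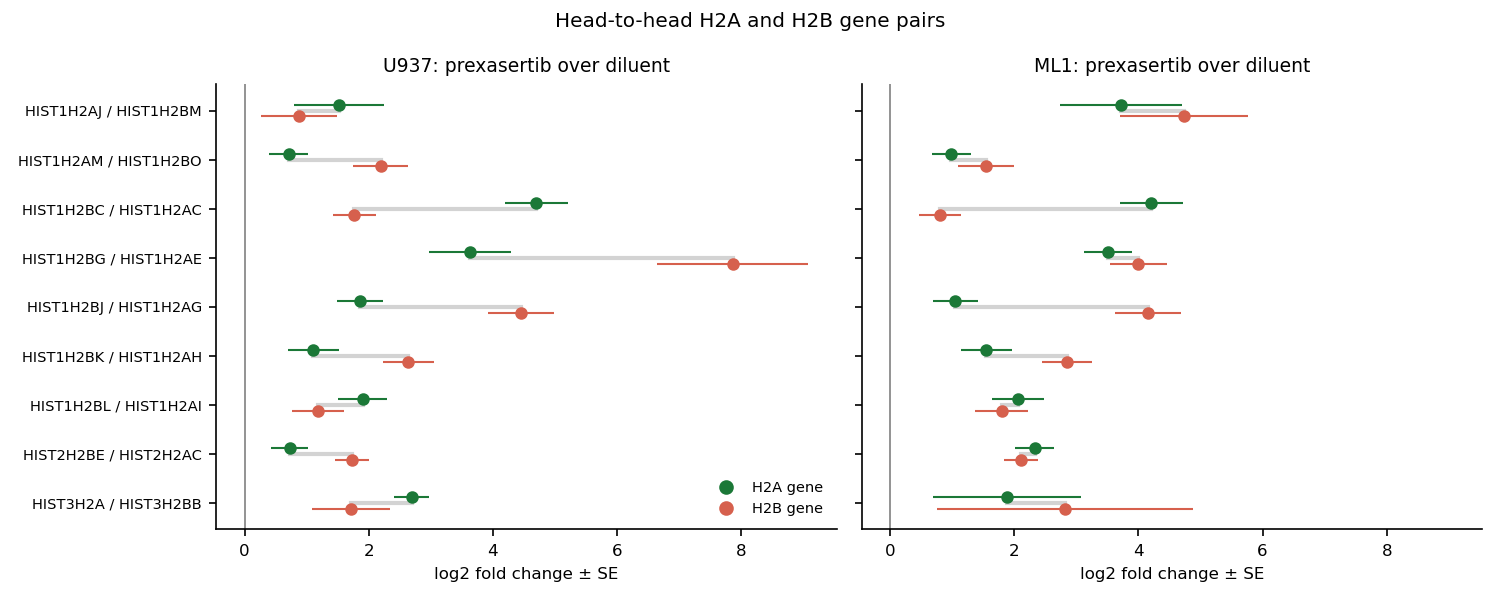
Log2 fold change with prexasertib ± SE (x axis) in U937 (left) and ML1 (right) for the H2A gene (green) and the H2B gene (red) of 9 head-to-head pairs (y axis). HIST1H2BG in U937 and HIST3H2BB in ML1 are fitted against 0 counts and are not bounds. HIST1H2AC lies far from HIST1H2BC, and HIST1H2BJ far from HIST1H2AG, in both lines.

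Genes that act on histone mRNA and on histones are given beside the share of all genes tested, which was 18.3% higher and 12.8% lower with prexasertib in U937, 25.3% higher and 23.5% lower in ML1, and 11.9% higher and 17.1% lower when LSN622666 was added. Of 18 genes of histone mRNA transcription and 3' processing, 3 rose and 5 fell in U937 with prexasertib, and 1 rose and 12 fell in ML1. SLBP, which binds the stem-loop, had 173 ± 37.7 CPM in U937 with prexasertib and 174 ± 19.9 CPM with diluent (SD, n = 3 each). In ML1 it had 113 ± 9.88 CPM with prexasertib and 243 ± 7.44 CPM with diluent, a fall of 1.10 on the log2 scale (adjusted p = 3.2e-05 in edgeR). NPAT, a coactivator of histone gene transcription, rose by 0.40 in U937 and fell by 0.60 in ML1, a difference of 1.00 between the lines (adjusted p = 0.00025 in edgeR). CASP8AP2, a component of histone locus bodies, fell by 0.76 in ML1 and changed by 0.23 in U937, where it did not pass the test. Of 25 histone chaperones 3 rose and 5 fell in U937, and 3 rose and 17 fell in ML1, among them the CAF-1 subunit gene CHAF1B (-1.73) and ASF1B (-1.52). Of 16 genes of S phase entry and DNA replication, 0 rose and 5 fell in U937, and 0 rose and 16 fell in ML1. MCM5, a subunit of the replicative helicase, had 140 ± 12.1 CPM in ML1 with prexasertib and 382 ± 29.9 CPM with diluent. Of 9 nuclear exosome genes 1 rose and 1 fell in U937, and 2 rose and 3 fell in ML1. When LSN622666 was added in U937, 2 of the 18 processing genes rose and 5 fell, 1 of the 25 chaperones rose and 4 fell, 0 of the 16 S phase genes rose and 4 fell, and 0 of the 9 exosome genes rose and 2 fell. CHEK1, which encodes the target of prexasertib, had 71.1 ± 12.7 CPM in U937 with prexasertib and 62.6 ± 2.38 CPM with diluent, and 19.2 ± 2 CPM in ML1 with prexasertib and 43.7 ± 1.67 CPM with diluent (SD, n = 3 each). The part of these genes in the histone values was not tested.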

How the data were processed

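Per the labels, RNA was column-extracted and libraries were made with TruSeq RNA Library Prep Kit v2. The deposited values are unnormalized counts of reads, 1 row a gene symbol. Per the submitters' processing notes, TopHat2 2.0.14, Bowtie2 2.2.6, featureCounts 1.4.6 and hg38 were used. The gene annotation, strand setting and handling of multiply mapped reads were not stated there. Groups and replicate numbers came from the labels, and no library was left out. Nothing says that replicates came from separate cultures, and p-values measure only the spread between these libraries, which may be technical.

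Counts were fitted in R 4.3.3 with edgeR 4.0.16 (filterByExpr with minimum count 10 and total 15, TMM, robust quasi-likelihood fit of all 15 libraries with 10 residual degrees of freedom, Benjamini-Hochberg over 17243 genes). CPM values use TMM-scaled library sizes. Per-kilobase levels divide by the union of GENCODE v29 exons. Alternatives were other scalings, DESeq2 1.42.0, other filters, a fit to 1 line, a replicate block and leaving out each library. The steps were tested on simulated data.

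Replicate numbers were checked by correlating deviations from group means of log2 CPM (prior count 0.5). Correlations for replicates 1, 2 and 3 were 0.495, 0.22 and 0.113 between prexasertib and diluent in U937, 0.29, 0.238 and 0.115 in ML1, and 0.557, 0.46 and 0.564 between combination and prexasertib. All exceed 0.1, the limit set here for pairing, though 0.113 and 0.115 only just do. Replicates 1, 2 and 3 gave 0.257, 0.015 and 0.255 between ML1 with prexasertib and U937 with the combination, groups of different lines. Whether the numbers pair the libraries is therefore uncertain, and the main fit did not use them. The labels do not state a pairing. Between combination and diluent in U937 the correlations were 0.535, 0.527 and 0.082, so the limit was not met there.

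Members and lists were chosen with earlier results of these data known. Named genes are the variants, the 12 replication-dependent members with the highest mean CPM, those with the largest changes in a comparison (up to 6 each way, mean of at least 1 CPM) and those moving against the majority. Others were named after their values were seen. Sequences were read from GENCODE v29 transcripts and RefSeq windows (GRCh38.p14), and uniqueness was counted over 50-base stretches.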

Additional observations from a re-analysis of the deposited data

Results flagged for a closer look

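The prexasertib effect differed between U937 and ML1 by a direct test of the difference (edgeR's quasi-likelihood test, adjusted p under 0.05) for 12 members. As U937 minus ML1 on the log2 scale, the variants gave -2.32 for H1F0, -0.78 for H1FX, 1.23 for H2AFX, 1.23 for H2AFZ and 1.03 for H2AFV. Replication-dependent members gave -1.76 for HIST1H1E, 1.20 for HIST2H2BC, -3.86 for HIST1H2BM, -2.72 for HIST1H4I, -2.09 for HIST1H3C, -1.60 for HIST2H2AC and 3.22 for HIST1H2BE. HIST1H2BM and HIST1H2BE averaged 1.22 and 0.386 CPM over all libraries. HIST1H2BM had 0, 4 and 0 counts in the ML1 diluent libraries, and HIST1H2BE had 0 counts in 2 of the 3 U937 diluent libraries.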

How the results depend on the processing

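For 149 pairs of a named member and a comparison, the alternatives gave 2015 values, of which 115 lost a call and 24 gained one, 98 and 14 of them by leaving out 1 library, and 0 called values changed sign. Another 36 values changed sign with a call in neither fit. For all 66 members together, the count that fell in U937 with prexasertib was 1, and 0 to 1 when a library was left out. The 1 member that rose when LSN622666 was added (HIST3H3) was 0 with no filter, 0 with a mean of at least 1 CPM, 0 in a fit to U937 alone and 0 whichever library was left out. Between combination and diluent, 6 rose in the main analysis, 2 in a fit to U937 alone, 9 by DESeq2 and 2 to 7 without a library. There, 3 fell, but 0 with upper-quartile factors, 0 in a fit to U937 alone, 7 by DESeq2, 7 with the replicate block and 0 to 10 without a library. Upper-quartile factors moved the median of all genes in that comparison to 0.106, from 0.001. The difference between lines was higher in U937 for 5 (3 to 5 without a library) and lower for 7 (5 to 12). With diluent, U937 was above ML1 for 14, for 9 with a mean of at least 1 CPM and for 10 to 22 without a library. The causes were not tested. The replicate block, where every replicate correlation exceeded 0.1, changed the call of 2 named members (HIST1H2AM in U937, 0.78, and H2AFX in ML1, -0.52), and of no other named member in those comparisons. Where that limit was not met, the block moved H2AFX, H2AFZ and HIST1H2BK past the threshold between combination and diluent (-0.47, -0.52 and 0.90), and HIST1H1C in the difference between lines (-0.97). Low counts limit HIST4H4, HIST1H4L, HIST3H2BB, HIST1H1T, HIST1H3E and HIST1H3G, for which at least 1 comparison had 3 counts or fewer in both groups.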
